A study of Mus musculus with 6 samples.

Results

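Genes that mark the GABAergic interneurons of the striatum were followed in dorsal striatum of knock-in mice with the G2019S change on both alleles of Lrrk2, a kinase gene mutated in inherited Parkinson's disease, and of wild-type mice. The genes were chosen by name as markers of parvalbumin, somatostatin/NPY and other GABAergic interneurons, and all 10 had a row among the 23067 genes of the deposited table. The knock-in group (genotype Lrrk2G2019S/G2019S) and the wild-type group (genotype Lrrk2WT/WT) held 3 libraries each, taken at postnatal day 21, with male animals named in every title. Bulk RNA sequencing gave 1 FPKM value per gene and library, which corrects for the length of the transcript and the size of the library, so levels may be set beside each other between genes. The labels do not state whether the samples are different animals, and the p-values therefore reflect only how these samples spread, part of which may be technical.

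Striatal interneurons are a minority among the projection neurons that carry the output of the striatum, and most classes of them release GABA onto their neighbours. Fast-spiking cells that hold parvalbumin inhibit the cell bodies of projection neurons, and cells that hold somatostatin, neuropeptide Y and neuronal nitric oxide synthase act more on dendrites and release peptides and nitric oxide. Both classes arise from the medial ganglionic eminence of the embryo under the transcription factor Lhx6. Cells with calretinin, with tyrosine hydroxylase or with the ionotropic serotonin receptor form further, smaller populations. Cortex, septum and pallidum hold interneurons or projection neurons that express several of the same genes.

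The libraries were checked before the levels were read. Projection neuron markers were abundant throughout, their summed level over 10 genes lying at 2982 to 3287 FPKM in knock-in and 2991 to 3109 FPKM in wild type. Markers of cortical excitatory neurons varied between libraries rather than with genotype alone, and the summed level over 9 measured genes was 43.1, 36.0 and 6.48 FPKM in knock-in replicates 1 to 3, against 17.0, 6.86 and 5.65 FPKM in wild type replicates 1 to 3. Slc17a7, whose product loads glutamate into cortical synaptic vesicles, was among these genes, at 29.9, 25.2 and 3.41 FPKM in knock-in, against 10.95, 3.55 and 2.73 FPKM in wild type. Xist, the RNA of the inactive X chromosome, stood at 27.2 to 39.3 FPKM in knock-in and at 31.4 to 33.0 FPKM in wild type. Its level in both genotypes goes against the male titles of all 6 libraries. None of 4 Y-linked genes looked up had a row. A gene at 0 in 1 library may lack a row, so this absence need not hold for every library. Lrrk2 itself stood at 11.3 to 12.4 FPKM in knock-in and at 10.9 to 12.0 FPKM in wild type, and since the knock-in changes the coding sequence only, its level is no check of the labels.

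The promoter windows of the somatostatin/NPY class are shown because Sst and Npy varied together over the libraries, as described further on, while Nos1, expressed in the same cells, did not. Each runs from 250 bases before to 50 bases after a RefSeq gene start on GRCm38.p6, 5′ to 3′ on the gene's strand, and capitals mark the half-site of the cyclic AMP response element, TGACG, or its reverse complement CGTCA. The windows are chr16:23890795-23891094 on the minus strand for Sst, chr6:49822460-49822759 on the plus strand for Npy and chr5:117866589-117866888 on the plus strand for Nos1, the last at a start inside the longer gene annotated by GENCODE.
Sst: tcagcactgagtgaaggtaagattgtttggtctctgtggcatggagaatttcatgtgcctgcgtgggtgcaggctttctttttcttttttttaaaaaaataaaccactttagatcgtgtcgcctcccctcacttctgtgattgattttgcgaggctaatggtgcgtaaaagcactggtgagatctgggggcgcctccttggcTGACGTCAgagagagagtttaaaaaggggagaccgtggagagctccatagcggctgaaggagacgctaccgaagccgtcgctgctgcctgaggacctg
Npy: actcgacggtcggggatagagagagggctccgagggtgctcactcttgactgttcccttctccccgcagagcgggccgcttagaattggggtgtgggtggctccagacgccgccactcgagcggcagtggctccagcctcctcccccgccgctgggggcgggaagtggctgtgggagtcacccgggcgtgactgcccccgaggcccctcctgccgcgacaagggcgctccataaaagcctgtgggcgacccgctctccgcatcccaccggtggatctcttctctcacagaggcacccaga
Nos1: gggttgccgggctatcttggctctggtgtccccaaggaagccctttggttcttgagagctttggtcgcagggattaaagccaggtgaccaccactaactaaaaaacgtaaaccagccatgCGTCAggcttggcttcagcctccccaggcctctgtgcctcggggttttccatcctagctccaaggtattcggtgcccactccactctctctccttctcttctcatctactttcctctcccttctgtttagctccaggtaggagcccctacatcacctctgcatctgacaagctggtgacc
The Sst window held 2 half-sites, one per strand, that overlap to form the full palindrome, the first at position -48 from the start. The Th window held the same overlapping pair, the first at position -45. The Nos1 window held 1 half-site at position -130, and the Npy window held none. Of 32851 mouse promoter windows of this length, 20.8% held a half-site on either strand and 1.79% held the overlapping pair. Of the 10 genes, 7 had a window in the RefSeq table, and windows of Sst, Th and Nos1 held a half-site. A match is a description of the letters only.

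The levels of the 10 genes spanned a wide range, which the order of their mean FPKM over the 6 libraries shows. Sst was highest at 244 FPKM, above 99.5% of the genes in the table, followed by Npy at 134 FPKM, Pvalb at 19.4 FPKM and Cox6a2 at 9.40 FPKM. The ranges of these over the libraries did not touch, nor did that of Cox6a2 and the next gene, Th. Th at 3.86 FPKM, Pthlh at 3.53 FPKM, Lhx6 at 3.48 FPKM, Calb2 at 3.05 FPKM and Nos1 at 3.02 FPKM overlapped each with its neighbour and cannot be ordered beyond their spread. Htr3a was lowest at 0.984 FPKM, just under the minimum mean of 1 FPKM set for testing, and its range lay below that of Nos1.

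**Figure D1:**
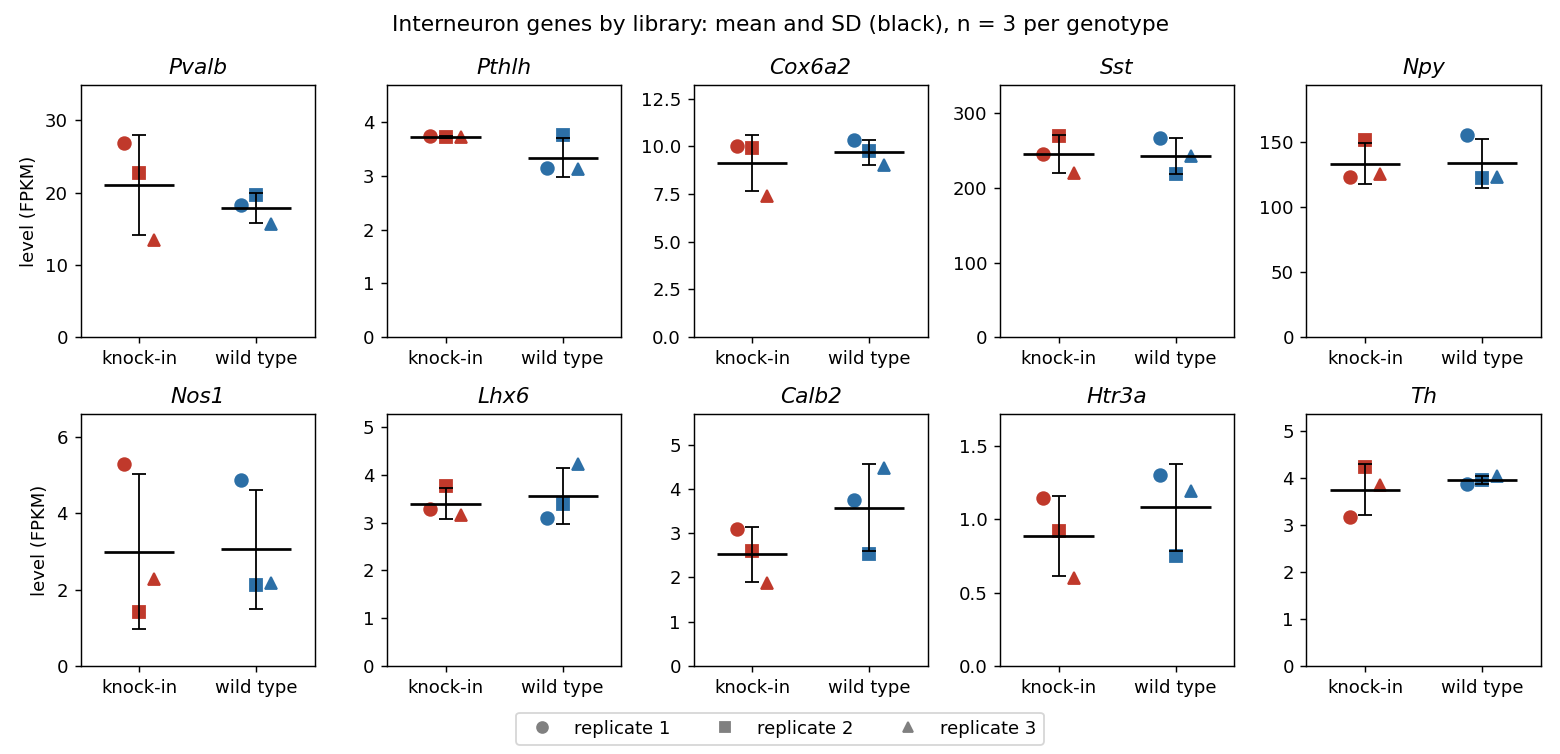
Level in FPKM (vertical axes, from 0) of the 10 interneuron genes in each library, knock-in left and wild type right, with symbols for replicates and black lines for the mean and SD (n = 3 each). In every panel the 2 genotypes overlap, and Nos1 is high in replicate 1 of both.

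The comparison asked whether any interneuron gene differed between knock-in and wild-type striatum. None was called, and every gene of the set overlapped between the genotypes. Of 9 genes that could be tested, 4 were on average higher and 5 lower in knock-in, and 0 were called by limma at an adjusted p under 0.05, where 0.0212% of all 14156 genes tested were called. At an unadjusted p under 0.05, 0 of the 9 passed, where 4.27% of all genes did. Levels overlapped between genotypes for all 10 genes, where 9.51% of all genes tested did not overlap. The median log2 difference of the 9 was -0.05, beside -0.01 over all genes tested, and 43.6% of all genes tested were on average higher in knock-in. All differences are knock-in minus wild type on the log2(FPKM + 1) scale, which understates changes of genes at low levels. The adjusted p-values from limma lay between 0.997 and 0.999 throughout and are not repeated for each gene.

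**Figure D2:**
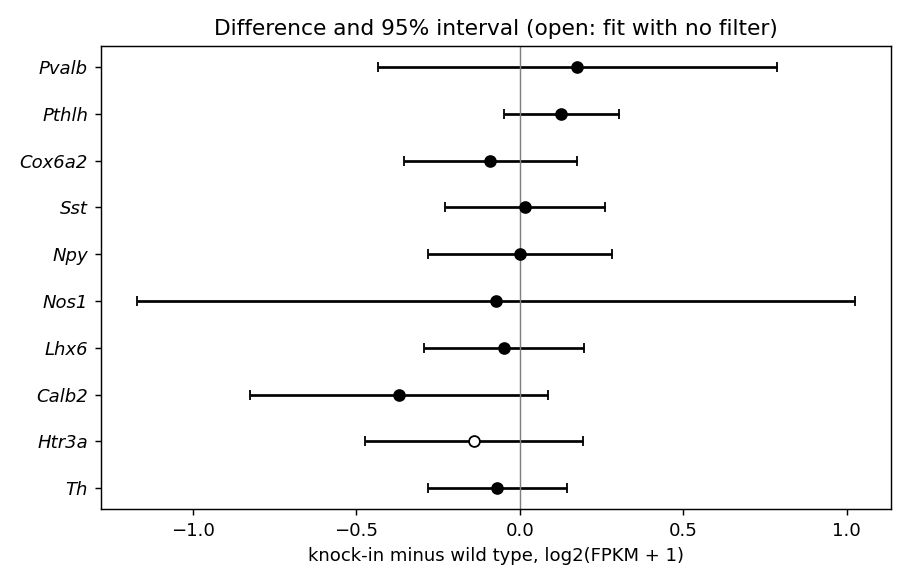
Difference between knock-in and wild type in log2(FPKM + 1) (horizontal axis) for each gene (vertical axis), with its 95% interval; the open symbol for Htr3a comes from the fit with no filter on low values. Every interval includes 0, and that of Nos1 is the widest, from -1.17 to 1.02.

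The parvalbumin class was taken first. Pvalb, which encodes the calcium buffer that names these fast-spiking cells, is on chromosome 15 at 78191114 to 78206400. It stood at 26.9, 22.7 and 13.4 FPKM in knock-in, against 18.2, 19.6 and 15.7 FPKM in wild type. Knock-in replicates 1 and 2 were the highest and knock-in replicate 3 the lowest of all 6 libraries, so the wild-type values lay inside the knock-in range. The means were 21.0 ± 6.91 FPKM in knock-in and 17.8 ± 2.02 FPKM in wild type (SD, n = 3 each), with a log2 difference of 0.18 (SE 0.25), and the fold had a 95% interval of 0.740 to 1.72. Without knock-in replicate 3 the difference was 0.45 (adjusted p = 0.688, unadjusted p = 0.00671, limma), and without knock-in replicate 1 it was -0.02. In the fit without knock-in replicate 3, 837 of all 14156 genes tested had an unadjusted p under 0.05, against 604 in the main fit. The summed cortical markers were also highest in knock-in replicates 1 and 2, at 43.1 and 36.0 FPKM, and the remaining 4 lay between 5.65 and 17.0 FPKM. With the mean level of these 9 markers as a covariate the Pvalb difference was -0.20, and the part of cortical tissue in the levels was not tested further. In bulk samples fewer cells of a type and less RNA per cell cannot be told apart.

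Pthlh and Cox6a2 mark the same striatal cells more broadly. Pthlh, which encodes parathyroid hormone-like hormone and marks a striatal population that includes the parvalbumin cells, is on chromosome 6 at 147252101 to 147264183. It stood at 3.75, 3.72 and 3.72 FPKM in knock-in, against 3.14, 3.75 and 3.13 FPKM in wild type. Wild type replicate 2, at 3.753 FPKM, was as high as the knock-in libraries, and the other 2 wild-type libraries lay below it. The log2 difference was 0.13 (SE 0.07), and the fold had a 95% interval of 0.967 to 1.23. Without wild type replicate 2 the Pthlh difference was 0.19 (unadjusted p = 0.0314, limma) and was not called. In that fit 481 of all 14156 genes tested had an unadjusted p under 0.05. Cox6a2, a subunit isoform of cytochrome c oxidase known from muscle and found in parvalbumin neurons, is on chromosome 7 at 128205435 to 128206387. The gene Itgad runs opposite 70 of its 680 exon bases. Cox6a2 stood at 10.01, 9.89 and 7.41 FPKM in knock-in, against 10.3, 9.75 and 8.995 FPKM in wild type. Knock-in replicate 3 was the lowest library, as it was for Pvalb, and the log2 difference was -0.09 (SE 0.11). The difference was 0.04 without that library and -0.28 with the cortical covariate (adjusted p = 0.354, unadjusted p = 0.00456, limma). In the covariate fit 1487 of all 14156 genes tested had an unadjusted p under 0.05, against 604 in the main fit.

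Pvalb was set against its class mates within each library, a ratio chosen after the levels were seen. The ratio of Pvalb to Cox6a2 was 2.69, 2.30 and 1.81 in knock-in, against 1.77, 2.02 and 1.74 in wild type, and that of Pvalb to Pthlh was 7.17, 6.10 and 3.61 in knock-in, against 5.82, 5.23 and 5.00 in wild type. Both ratios were highest in knock-in replicates 1 and 2, so Pvalb varied over those libraries by more than Cox6a2 or Pthlh did.

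**Figure D3:**
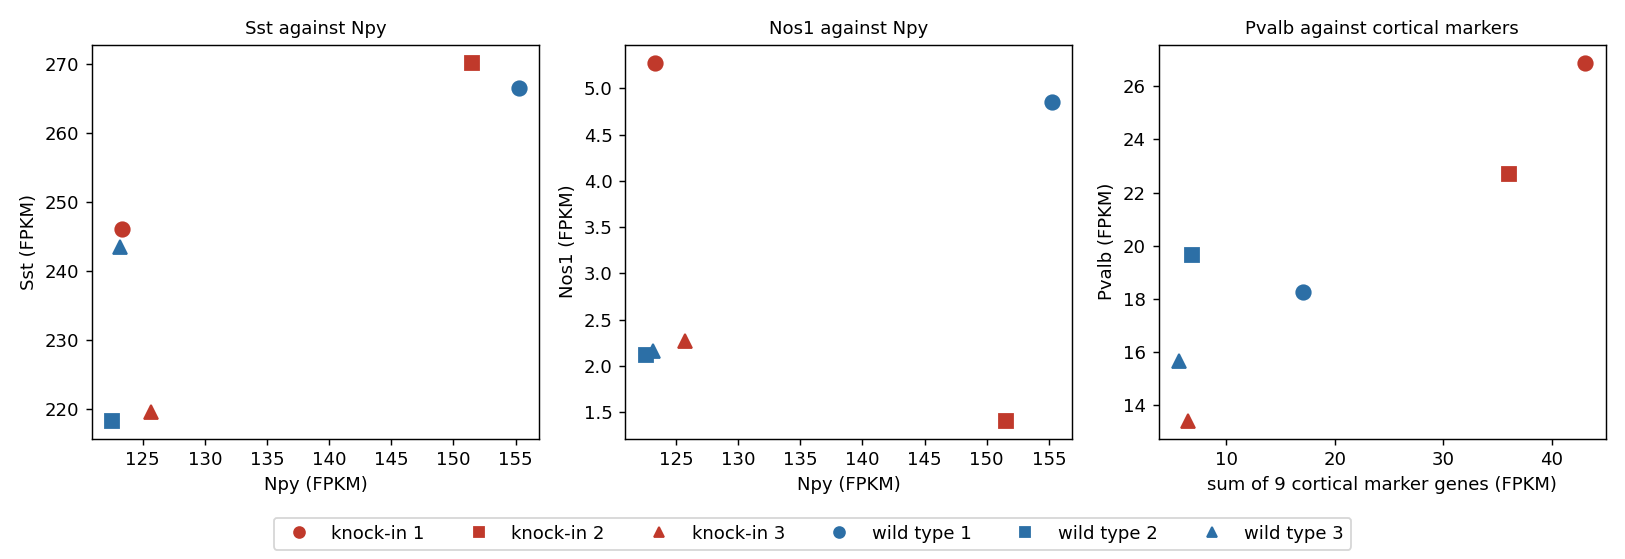
Each point is 1 library (red knock-in, blue wild type, symbols for replicates), plotted as Sst against Npy, Nos1 against Npy, and Pvalb against the summed level of 9 cortical marker genes, all in FPKM with axes that do not start at 0. Sst and Npy are both high in knock-in replicate 2 and wild type replicate 1, Nos1 is high in replicate 1 of each genotype, and Pvalb is highest in the 2 libraries with the most cortical marker RNA.

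The somatostatin/NPY class held the most abundant genes. Sst, which encodes the inhibitory peptide somatostatin, is on chromosome 16 at 23889573 to 23890958. It stood at 246.1, 270.3 and 219.7 FPKM in knock-in, against 266.6, 218.4 and 243.5 FPKM in wild type. The genotypes overlapped almost wholly, with means of 245 ± 25.3 FPKM in knock-in and 243 ± 24.1 FPKM in wild type (SD, n = 3 each). On the log2 scale they differed by 0.01 (SE 0.10), and the fold had a 95% interval of 0.852 to 1.197. Npy, which encodes neuropeptide Y, is on chromosome 6 at 49822710 to 49829507. It stood at 123.3, 151.5 and 125.7 FPKM in knock-in, against 155.2, 122.6 and 123.2 FPKM in wild type. In each genotype 1 library stood above the other 2, knock-in replicate 2 and wild type replicate 1. The log2 difference was 0.0009 (SE 0.12), and the fold had a 95% interval of 0.824 to 1.22. The intervals of both peptide genes exclude a change of 1.5-fold in either direction, on that scale.

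Sst and Npy kept close to a fixed proportion. The ratio of Sst to Npy, also chosen after the levels were seen, was 2.00, 1.78 and 1.75 in knock-in, against 1.72, 1.78 and 1.98 in wild type. Its coefficient of variation over the 6 libraries was 6.59%, against 9.08% for Sst and 11.5% for Npy alone. The mean ratio was 1.84 ± 0.134 in knock-in and 1.83 ± 0.135 in wild type (SD, n = 3 each).

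Nos1, the neuronal nitric oxide synthase of the same cells, behaved otherwise. It is on chromosome 5 at 117781032 to 117958840, where GENCODE lists 7 transcripts, and the predicted gene Gm26995 runs opposite 268 of its 11151 exon bases. It stood at 5.28, 1.41 and 2.27 FPKM in knock-in, against 4.86, 2.12 and 2.17 FPKM in wild type. Replicate 1 of each genotype was at more than 4 FPKM, and the other 4 libraries lay between 1.41 and 2.27 FPKM. Its coefficient of variation over the libraries was 53.8%, the highest of the 10 genes and against a median of 8.45% over all genes tested. The log2 difference was -0.07 (SE 0.44). The 95% interval of the fold, on the scale of FPKM + 1, ran from 0.444 to 2.03, so a change within that range is not excluded. Whether replicate numbers pair the samples could not be decided, and the shared number of the 2 high libraries is given as a fact only. The ratio of Nos1 to Npy was 0.0428, 0.00931 and 0.0181 in knock-in, against 0.0313, 0.0173 and 0.0176 in wild type.

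**Figure D4:**
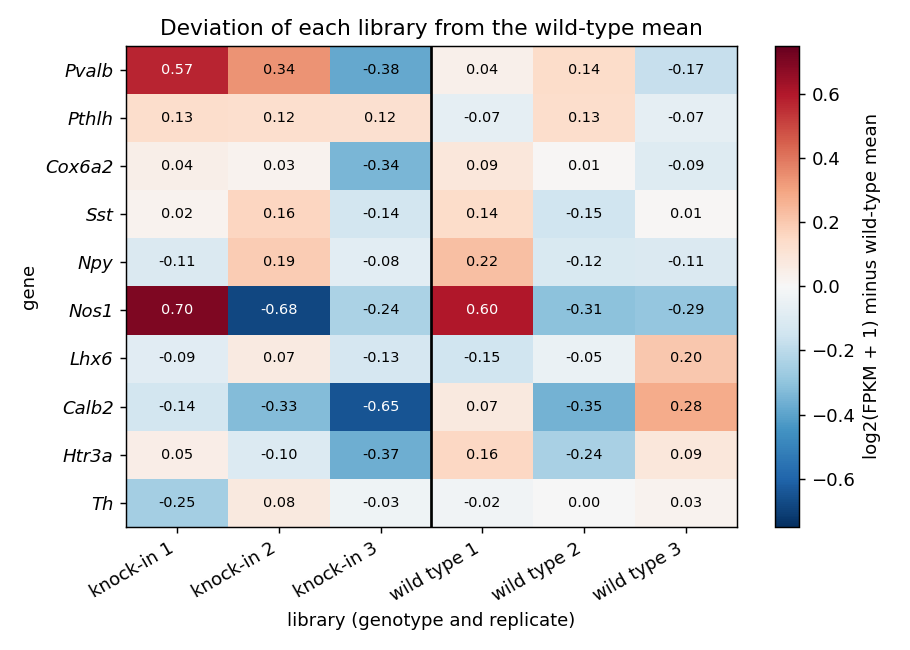
Deviation of each library (columns) from the wild-type mean in log2(FPKM + 1) for each interneuron gene (rows), red above and blue below it. Knock-in replicate 3 is the lowest library for Pvalb, Cox6a2, Calb2 and Htr3a, and Nos1 deviates upward in replicate 1 of both genotypes by 0.70 and 0.60.

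Lhx6, the transcription factor that specifies both classes, lies on chromosome 2 at 36081953 to 36105408, and 104 of its 4805 exon bases are shared with the predicted gene Gm27953 on the same strand. It stood at 3.28, 3.76 and 3.16 FPKM in knock-in, against 3.10, 3.38 and 4.22 FPKM in wild type. Wild type held both the lowest and the highest library. The log2 difference was -0.05 (SE 0.10), and the fold had a 95% interval of 0.816 to 1.146.

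The other interneuron genes included the one with the smallest p. Calb2, which encodes the calcium-binding protein calretinin, is on chromosome 8 at 110137502 to 110168210. It stood at 3.10, 2.60 and 1.87 FPKM in knock-in, against 3.74, 2.53 and 4.46 FPKM in wild type. Wild type replicate 2 lay within the knock-in range, and the other 2 wild-type libraries were above all knock-in libraries. The means were 2.52 ± 0.617 FPKM in knock-in and 3.58 ± 0.977 FPKM in wild type (SD, n = 3 each), and the log2 difference of -0.37 (SE 0.19) had an unadjusted p = 0.0951 and an adjusted p = 0.997 in limma. The 95% interval of the fold ran from 0.564 to 1.06. Without wild type replicate 2 the difference was -0.55 (limma, unadjusted p = 0.0118, adjusted p = 1). In the fit without that library, 481 of all 14156 genes tested had an unadjusted p under 0.05. The Calb2 difference was -0.23 both without knock-in replicate 3 (limma, unadjusted p = 0.278, adjusted p = 0.892) and without wild type replicate 3 (limma, unadjusted p = 0.262, adjusted p = 1). With the cortical covariate it was -0.56 (limma, unadjusted p = 0.0401, adjusted p = 0.450). In that fit 1487 of all 14156 genes tested had an unadjusted p under 0.05, against 604 in the main fit.

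Calretinin is also found in newborn neurons of the subventricular zone and in thalamic cells, so their markers are given beside it. The summed level over 8 markers of neuroblasts and dividing cells was 13.6, 16.4 and 14.0 FPKM in knock-in, against 18.0, 17.1 and 21.1 FPKM in wild type, without overlap. Of 5 tested markers of that list 4 were lower in knock-in on average and 0 were called. At an unadjusted p under 0.05, 3 of the 5 passed, where 4.27% of all genes tested did, and 3 did not overlap between genotypes, where 9.51% of all genes tested did not. Igfbpl1, a marker of immature neurons, had the smallest p of these, at 1.30, 1.75 and 1.12 FPKM in knock-in, against 2.17, 2.02 and 2.43 FPKM in wild type (log2 difference -0.43, unadjusted p = 0.00445, adjusted p = 0.997 in limma). Dcx was the 1 tested marker of the list that was not lower on average, with a log2 difference of 0.05. Its levels were 1.79, 1.81 and 2.04 FPKM in knock-in, against 1.12, 1.91 and 2.46 FPKM in wild type. The summed level over 5 measured thalamic markers was 3.88 to 5.30 FPKM in knock-in and 4.56 to 5.21 FPKM in wild type, and Shox2 had no row. The part of these cells in the Calb2 level was not tested.

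Htr3a, a subunit of the serotonin-gated ion channel that marks interneurons of caudal origin, is on chromosome 9 at 48899213 to 48911099. It stood at 1.14, 0.921 and 0.601 FPKM in knock-in, against 1.30, 0.747 and 1.19 FPKM in wild type. The genotypes overlapped, and knock-in replicate 3 was again the lowest library. In the fit with no filter, which tested all 10 genes, its log2 difference was -0.14 (SE 0.14) with an adjusted p = 0.980 in limma. The partner subunit gene Htr3b had no row.

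Th encodes tyrosine hydroxylase, the rate-limiting enzyme of catecholamine synthesis, and in the striatum it marks a small interneuron population. It is on chromosome 7 at 142892752 to 142931128. It stood at 3.17, 4.24 and 3.87 FPKM in knock-in, against 3.89, 3.97 and 4.06 FPKM in wild type. The wild-type libraries lay within the knock-in range and were closer together, with an SD of 0.0860 FPKM against 0.540 FPKM in knock-in (n = 3 each). The log2 difference was -0.07 (SE 0.09), and the fold had a 95% interval of 0.823 to 1.10. Midbrain dopamine neurons also express Th, and of 8 of their markers looked up, the transcription factor genes En1, Foxa1, Foxa2, Pitx3 and Lmx1b had no row. Of the 3 with a row, the dopamine transporter gene Slc6a3 was at 0.0536 to 0.0880 FPKM in knock-in and at 0.0306 to 0.0664 FPKM in wild type. The vesicular monoamine transporter gene Slc18a2 stood at 0.683 to 0.932 FPKM in knock-in and at 0.640 to 0.773 FPKM in wild type. Ddc, which encodes the decarboxylase that follows tyrosine hydroxylase, was near the level of Th, at 3.02 to 3.07 FPKM in knock-in and 2.76 to 3.77 FPKM in wild type. The part of midbrain dopamine neurons in the Th level was not tested.

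Companion genes of the same cells were taken from lists chosen by cell type, with calls from the same limma fit. At an unadjusted p under 0.05, 0 members passed in each of the companion lists except the transcription factors. Of 10 companions of the parvalbumin class 8 were tested, with 5 higher and 3 lower in knock-in and 0 called. Kcnc2, a fast potassium channel subunit, stood at 2.58, 1.91 and 1.10 FPKM in knock-in, against 1.36, 1.22 and 1.47 FPKM in wild type, high in the same 2 knock-in libraries as Pvalb and lowest in knock-in replicate 3, as Pvalb was. Kcna1, another potassium channel subunit, stood at 8.37, 6.32 and 8.87 FPKM in knock-in, against 7.90, 9.16 and 8.72 FPKM in wild type. Of the 10 companions, 6 were highest in knock-in replicate 1 or 2, where 36.5% of all genes tested were.

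Of 8 companions of the somatostatin/NPY class 6 were tested, with 4 higher and 2 lower in knock-in and 0 called. Rbp4, a retinol carrier, did not overlap between genotypes, at 8.34, 8.57 and 8.07 FPKM in knock-in, against 7.81, 7.11 and 7.69 FPKM in wild type (log2 difference 0.13, unadjusted p = 0.0672, adjusted p = 0.997 in limma). Cort, which encodes the somatostatin-like peptide cortistatin, stood at 1.67, 2.61 and 0.517 FPKM in knock-in, against 0.993, 0.456 and 0.346 FPKM in wild type. Its 3 highest libraries were the 3 with the most cortical marker RNA.

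Of 13 companions of other GABAergic interneurons 9 were tested, with 7 higher and 2 lower and 0 called. Cck, the cholecystokinin gene, which cortical excitatory neurons express as well, stood at 19.6, 25.1 and 6.63 FPKM in knock-in, against 10.2, 6.12 and 4.82 FPKM in wild type. Mia, known from neuropeptide Y cells of neurogliaform type, stood at 0.542, 1.72 and 0.993 FPKM in knock-in, against 1.75, 1.77 and 1.76 FPKM in wild type. The 3 knock-in libraries of Mia lay below the 3 wild-type ones, 1 of them by little, and the log2 difference of -0.44 had an unadjusted p = 0.0523 and an adjusted p = 0.997 in limma.

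Of 16 transcription factors of the interneuron lineage 14 were tested, with 5 higher and 9 lower and 0 called, where 43.6% of all genes tested were higher in knock-in. At an unadjusted p under 0.05, 4 of the 14 passed, all lower in knock-in, where 4.27% of all genes tested did in either direction. Zeb2, which directs interneuron precursors towards their fate and is also expressed by oligodendrocytes, stood at 3.14, 2.71 and 2.37 FPKM in knock-in, against 3.56, 3.99 and 3.29 FPKM in wild type (log2 difference -0.30, unadjusted p = 0.0152, adjusted p = 0.997 in limma). Dlx1, a homeobox gene of the ganglionic eminences and of neuroblasts, stood at 3.15, 4.89 and 2.85 FPKM in knock-in, against 6.12, 4.35 and 5.51 FPKM in wild type. The others, chosen after their values were seen, were Sox6 and Prox1. Sox6 stood at 1.09 to 1.17 FPKM in knock-in and at 1.33 to 1.44 FPKM in wild type. Prox1 stood at 1.80 to 2.11 FPKM in knock-in and at 2.30 to 2.48 FPKM in wild type. These genes are not limited to interneurons. The summed level of 5 oligodendrocyte markers was 1707 to 2071 FPKM in knock-in and 2088 to 2329 FPKM in wild type, and that of neuroblasts is given beside Calb2. The part of either in these levels was not tested.

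The genes that make and carry GABA, which projection neurons express too, numbered 6, of which 2 were higher, 4 lower and 0 called. Gad1, a GABA-synthesizing enzyme, stood at 58.4, 54.1 and 62.4 FPKM in knock-in, against 55.4, 55.8 and 56.4 FPKM in wild type. Receptors and partners of the peptides and enzymes were also compared, and of 17 looked up 16 had a row and 11 were tested, with 5 higher, 6 lower and 0 called. The neuropeptide Y receptor gene Npy1r stood at 3.09, 2.96 and 2.86 FPKM in knock-in, against 1.98, 2.98 and 2.38 FPKM in wild type. The somatostatin receptor gene Sstr2 stood at 4.18, 4.85 and 2.59 FPKM in knock-in, against 3.47, 2.34 and 2.98 FPKM in wild type. Cholinergic interneurons, the other large interneuron class, had 4 of 5 markers tested and 0 called, with a median log2 difference of 0.05.

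The spread of the interneuron genes between libraries was set beside that of all genes tested. All 9 tested genes had a coefficient of variation above the median of all genes tested, 8.45%, and their own median was 11.5%. Pthlh at 8.80%, Sst at 9.08% and Th at 9.43% were above it by little. Genes of like level were not compared, so a part of level in this was not tested. Knock-in replicate 3 was the lowest library for 4 of the 10 and the highest for none, and 32.0% of all genes tested were lowest there. Relative to the wild-type mean, the 9 genes had a median deviation of 0.02, 0.08 and -0.14 in knock-in replicates 1 to 3, against 0.07, -0.05 and -0.07 in wild type replicates 1 to 3.

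For each tested gene the other tested genes with the nearest profile were found, by the root-mean-square difference of log2(FPKM + 1) over the 6 libraries after centring each gene on its own mean. Nearest to Pvalb were Hapln4, a link protein of the extracellular matrix, at 0.087, and the pentraxin receptor gene Nptxr at 0.0987, where Pvalb itself varied by 0.313 around its mean. Hapln4 stood at 6.37, 4.597 and 2.37 FPKM in knock-in, against 3.82, 3.63 and 3.37 FPKM in wild type. Nearest to Nos1 were Zdhhc24 at 0.108 and Brinp2 at 0.128, where Nos1 varied by 0.507. Brinp2 stood at 6.21, 2.26 and 2.33 FPKM in knock-in, against 6.00, 2.52 and 2.42 FPKM in wild type, so that replicate 1 of each genotype stood apart there as well. Nearest to Sst was Selenow at 0.0185, and nearest to Calb2 was Sap25 at 0.0762. With 6 libraries and 14156 genes some near profiles are found for any gene, and nothing is read from them.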

How the data were processed

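RNA of dorsal striatum was sequenced in 3 knock-in and 3 wild-type libraries. The deposited FPKM values, 1 per gene and library, were made by the authors. Per the submitters' processing notes the tools included HISAT2, StringTie, SAMtools and FastQC, without versions. Which genome build, annotation and strand setting were used is not given in the sources used here. Columns were matched to samples by the codes in the labels. Low values of genes with 1 transcript were checked for whole-read steps, and 36.4% to 40.1% of values lay within 0.1 of a whole number, so read counts were not recovered, the depth is unknown, and precision was taken from the spread between libraries. The table holds no value of exactly 0, so a gene at 0 in 1 library may lack a row.

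The 14156 genes whose mean reached 1 FPKM were compared by limma 3.58.1 in R 4.3.3 on log2(FPKM + 1), with robust estimation and a prior variance that follows the level, as two-sided tests with Benjamini-Hochberg adjustment over all genes tested. Intervals are 95%. Named were all interneuron genes, the 2 nearest profiles of each tested gene (a selection is printed), the 2 tested genes of smallest p per companion list, Slc17a7 and Xist. Genes named only as markers or as absent fall outside that rule. The genes and lists were chosen with earlier results of these data known. Positions are from GENCODE M21 on GRCm38, matched by identifier for 22987 of 23067 genes, and the authors' build may differ. Gucy1a1 and Gucy1b1 were matched by identifier.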

Additional observations from a re-analysis of the deposited data

How the results depend on the processing

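Alternatives were a pseudocount of 0.1, no filter on low values, quantile normalization, median-of-ratios scaling, limma with no trend and no robust estimation, a replicate block, the cortical marker level as a covariate, and leaving out each library in turn. Under each of these, 0 interneuron genes were called. The differences of Pvalb, Sst, Npy, Nos1, Th, Lhx6 and Cox6a2 changed sign under some of these. Those of Pthlh and Calb2 kept their sign under all. With the cortical covariate the log2 difference was -0.201 for Pvalb, -0.111 for Sst and -0.0992 for Npy, and with quantile normalization it was -0.0109 for Npy, and the cause was not tested. Over the fits that left out 1 library each, the log2 difference ranged from -0.0229 to 0.454 for Pvalb, from -0.0595 to 0.0912 for Sst, from -0.0929 to 0.113 for Npy, from -0.461 to 0.229 for Nos1, from -0.141 to 0.0225 for Th, from -0.123 to 0.052 for Lhx6, from -0.158 to 0.0368 for Cox6a2, from 0.0929 to 0.194 for Pthlh and from -0.547 to -0.231 for Calb2. Their median ranged from -0.0929 to 0.084, the highest without wild type replicate 1, against -0.0486 with all libraries. The count called over all genes was 3 with every library in and ranged from 3 to 14 in these fits. It was 11, 14 and 6 when knock-in replicates 1, 2 and 3 were left out in turn, and 8 without wild type replicate 2. With the replicate block 2 genes were called over all genes and 0 interneuron genes, and the median difference of the interneuron genes was -0.0486. Deviations of same-numbered samples had correlations over genes of -0.0113, -0.0739 and 0.186. Those of differently numbered samples ran from -0.184 to 0.21. With so few samples per genotype these values cannot decide whether the numbers pair the samples. A comparison of 3 against 3 cannot go below an exact permutation p of 0.1 for a single gene. Nos1, Pvalb and Calb2 had intervals wide enough to hold a difference of 1.5-fold on the scale of FPKM + 1. That scale understates changes at low levels. The interval of Htr3a, whose mean was 0.984 FPKM, ran down to a fold of 0.720 there. It therefore does not exclude a fall of 1.5-fold in FPKM itself.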
